A study of Pardosa pseudoannulata with 16 samples.

Results

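The comparison of UM with UL set the RNA of 4 UM libraries against that of 4 UL libraries of the wolf spider Pardosa pseudoannulata, out of 16 libraries in 4 groups named UM, UL, UH and Ck. The libraries were chosen by their group labels alone. Of 136360 sequence clusters in the deposited table, 29815 had at least 1 FPKM (fragments relative to cluster length in kilobases and to the library's mapped total) in at least 4 of the 8 UM and UL libraries, and these were compared.

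All libraries came from whole spiders, field-caught adults per the design text, and the labels give every group, Ck included, the same urea treatment. The design text names exposure for 30 days to soil with urea at 0, 200 or 400 mg/kg but ties no concentration to a group. UM and UL are therefore compared by name, with no order of dose. No label says whether a library came from 1 spider or a pool, so p-values cover the spread between libraries, part or all of which may be technical.

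Pardosa pseudoannulata is a ground-living hunter of insect pests in rice fields. Urea is a nitrogen fertiliser that soil microbes turn into ammonia, and spiders themselves discard surplus nitrogen mainly as guanine. A whole-spider library mixes gut, silk glands, muscle, gonads and nervous tissue, so a different share of one tissue and a different RNA level per cell cannot be told apart. Gene names are not paired with clusters in the table, so neither the tissues nor the functions behind the clusters could be checked, and clusters are described by their size, length and values.

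Of the 8 libraries, all but UM replicate 3 were close in depth. Depth was estimated from the spacing of the low FPKM values. It came to 16.65 to 18.94 M (mega) fragments per UM library and 18.75 to 19.57 M per UL library. UM replicate 3 was the shallowest, and the other UM libraries had 18.51 to 18.94 M. One fragment was then worth 0.214 to 0.258 FPKM on a cluster of 500 bases and 0.029 to 0.035 FPKM on a cluster of 2000 bases. UM libraries listed 79970, 83174, 78216 and 82797 clusters above 0 in replicates 1 to 4, and UL libraries 77409, 81832, 90373 and 78686. UL replicate 3 listed the most, and the groups overlapped (difference in means -1035.8, two-sided exact permutation p = 0.857). The 10 most abundant clusters of a library held 23.5% ± 2.31 of its FPKM sum in UM and 21.5% ± 5.36 in UL (SD, n = 4 each; exact permutation p = 0.514, 0.857 adjusted over both measures).

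Profiles separated by group along one axis, and one library of each group stood apart. On the first principal component (43.4% of the variance of log2(FPKM + 1)), UM libraries lay at 55, 33.9, 104.6 and 41.9 and UL libraries at -51.2, -47.3, -51.1 and -85.8. UM replicate 3 and UL replicate 4 were thus the outermost libraries. Correlations were taken across clusters, which are no replicates, and ran from 0.889 to 0.942 within UM, from 0.852 to 0.937 within UL and from 0.729 to 0.901 between the groups. UM replicate 3 correlated with its own group at 0.889 to 0.897, and UL replicate 4 with its own at 0.852 to 0.883. The number of calls, the shift of all clusters and by length, the counts without overlap and the named clusters whose call was lost are also given without these 2 libraries. Because they were picked as outermost along the axis between the groups, leaving them out favours a smaller difference by selection.

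With all libraries, more clusters were slightly lower than higher in UM, while most large changes that passed the test were rises. limma called 1340 of 29815 clusters between UM and UL (4.49%; adjusted p under 0.05, Benjamini-Hochberg over all tested clusters), of which 1056 rose (3.54%) and 284 fell (0.953%). Falls thus made up 21.2% of the calls, but 42.1% with quantile normalization (1298 rose and 942 fell). The median log2 fold change was 2.05 among the rises (interquartile range 1.37 to 2.81) and -0.69 among the falls (interquartile range -1.09 to -0.53). Over all tested clusters the median log2 fold change was -0.08, and 60.3% lay below 0. That median was 0.02 in 1 alternative, quantile normalization over all listed clusters. Without UM replicate 3 and UL replicate 4 the median was -0.01 and 51.2% lay below 0. The tails were unequal: the 1st percentile was -1.29 and the 99th percentile 2.86, and -1.18 and 2.52 without these libraries. Fold changes are differences of log2(FPKM + 1), on which changes of weakly expressed clusters come out too small.

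**Figure D1:**
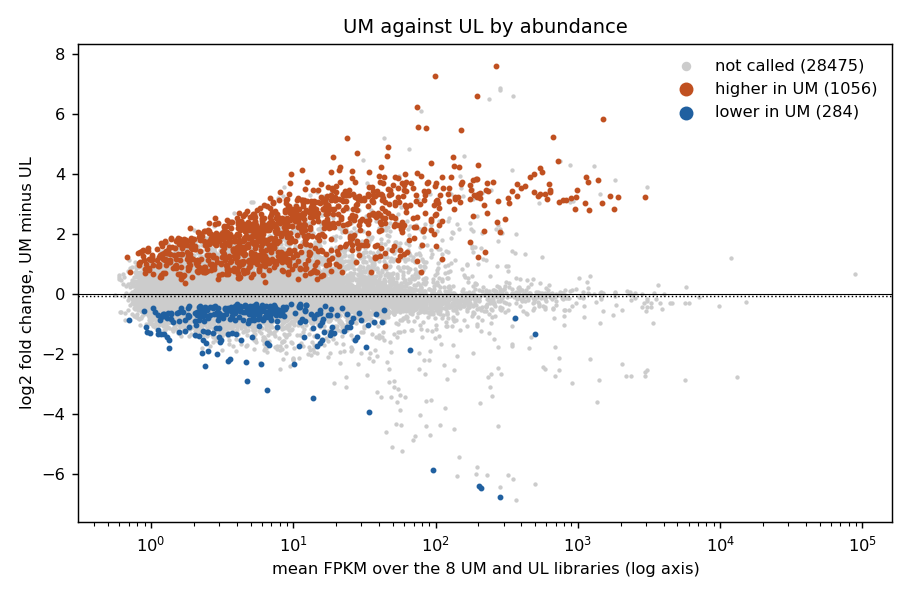
Each point is a tested cluster, with its mean FPKM over the 8 libraries on a log axis and its log2 fold change (UM minus UL) on the other axis; the dotted line marks the median of -0.08. The 1056 called rises reach 7.60 and extend to the most abundant clusters, while most of the 284 called falls lie within 1.09 of 0.

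The call count depended strongly on single libraries. It was 31, 845 and 50 without UM replicates 1, 2 and 3, and 673, 318, 77 and 47 without UL replicates 1 to 4. Without UM replicate 4 it was 1088, and without UM replicate 3 and UL replicate 4 together it was 16. Most calls lay near the threshold: 11 had an adjusted p under 0.01, 685 one of 0.01 to 0.03 and 644 one of 0.03 to 0.05, and a further 520 clusters lay between 0.05 and 0.07. With any 1 of the 8 libraries left out, all 1340 calls kept their sign and an unadjusted p under 0.05. These calls were chosen on the same libraries, and 69.5% of all tested clusters kept their sign in all 8 fits. In 1045 of the rises and 261 of the falls the groups did not overlap, so leaving out 1 library could not turn their sign. The median adjusted p of the 1340 calls ran from 0.0405 to 0.105. The median log2 fold change of the 1056 rises then ran from 1.82 to 2.22 and that of the 284 falls from -0.73 to -0.66. Without UM replicate 3 and UL replicate 4 these medians were 1.76 and -0.64. In all 8 fits with 1 library left out, 23 clusters kept their call, 20 that rose and 3 that fell.

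**Figure D2:**
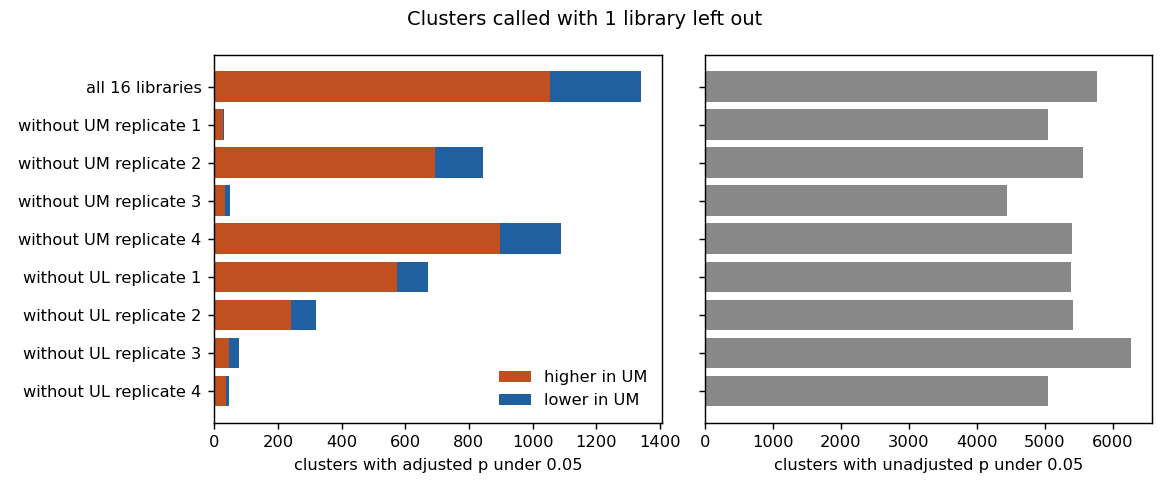
Bars give the clusters with an adjusted p under 0.05 (left, split by direction) and with an unadjusted p under 0.05 (right) with all libraries and with 1 UM or UL library left out. The left count runs from 31 to 1088 against 1340 with all libraries, and the right count from 4440 to 6268 against 5769.

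Direction changed with the size of the difference. Among the 23441 clusters with an absolute log2 fold change under 0.5, 65.9% were lower in UM, and of the 69 calls there 64 fell and 5 rose. Between 0.5 and 1, 115 rose and 145 fell. Between 1 and 2, 389 rose and 61 fell, and over 2, 547 rose and 14 fell. Falls thus made up 7.42% of the calls whose log2 fold change was 1 or more in size. This share was 10.7 and 27.9% without UM replicates 1 and 3 (28 and 43 such calls), 17.4, 28.8 and 23.3% without UL replicates 2, 3 and 4, and 37.5% of 16 calls without UM replicate 3 and UL replicate 4. The 4 UM and 4 UL values did not overlap in 4207 clusters (14.1% of those tested), 2449 higher (8.21%) and 1758 lower (5.9%) in UM. The majority of higher clusters grew after median ratio scaling (2864 higher, 1500 lower) and turned with quantile normalization (2475 higher, 2788 lower). As deposited, 282 clusters without overlap were higher and 1121 lower under 0.5 (1.2 and 4.78% of that class). Between 0.5 and 1, where the calls had more falls, 646 were higher and 465 lower (16.6 and 12.0%). Over 2, 673 were higher and 46 lower (81.1 and 5.54%). Without UM replicate 3 and UL replicate 4, the remaining 3 and 3 values were apart in 3629 clusters higher and 2771 lower in UM, of 29815 tested. With fewer libraries values come apart by chance more often, so these counts cannot be set against those of 4 against 4. Of all clusters that differed by over 2 without these 2 libraries, 555 were higher and 78 lower.

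Large falls were fewer than large rises, and those not called varied widely among the UL libraries. Of 105 clusters lower by more than 2 on the log2 scale, 91 were not called. In these 91 the median value was 1.53, 2.11, 1.18 and 2.08 FPKM in UM replicates 1 to 4, against 65.8, 24.6, 4.77 and 454 FPKM in UL replicates 1 to 4. UL replicate 4 was the highest UL library in 57 of the 91, and the median SD on the log2 scale was 0.61 in UM and 2.54 in UL. Of 725 clusters higher by more than 2, 547 were called, and their median was 31.5, 24.9, 54.8 and 22.6 FPKM in UM, against 4.27, 3.68, 2.37 and 2.43 FPKM in UL. Their median SD was 0.62 in UM and 0.45 in UL. The test favours even values, so called and uncalled sets differ in spread by selection. The 178 uncalled rises of this size had a median SD of 0.99 in UM and 0.60 in UL, and the 14 called falls 0.16 in UM and 0.99 in UL.

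The spread of rises over abundance depended on which libraries set the abundance. The mean over the 8 UM and UL libraries contains the raised UM values, so a rise itself moves a cluster up a class. Among 8084 clusters with a mean under 2 FPKM over the 8 libraries, 125 rose (1.55%) and 40 fell (0.495%). From 2 to 10 FPKM, 444 of 15094 rose (2.94%) and 178 fell (1.18%). From 10 to 100 FPKM, 391 of 5894 rose (6.63%) and 61 fell (1.03%). Over 100 FPKM, 96 of 743 rose (12.9%) and 5 fell (0.673%). Other means were tried after these values had been seen. By the mean over the 4 Ck libraries, which have no part in the difference, 1.42, 2.87, 7.17 and 15.4% of these classes rose (131, 410, 399 and 116 clusters) and 0.684, 1.13, 0.953 and 0.797% fell. By the mean over the 4 UL libraries, which a rise lowers relative to the rest, 5.45, 2.64, 3.07 and 3.99% rose and 0.215, 1.25, 1.24 and 1.04% fell. In UL the rises lay below the median of all tested clusters (median of log2 levels 1.76 against 2.16), and in UM above it (3.83 against 2.18). In Ck they also lay above it (3.08 against 2.10), so the Ck mean too places rises in higher classes than the UL mean does. No order by abundance is therefore read from the means of these groups. Because low values are compressed by the pseudocount and carry few fragments, shares of calls in the lowest class are not read as a smaller effect. The small downward shift showed no such order: the median log2 fold change was -0.06, -0.09, -0.11 and -0.07 from the lowest to the highest class, and 58.8 to 61.1% of each class lay below 0.

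**Figure D3:**
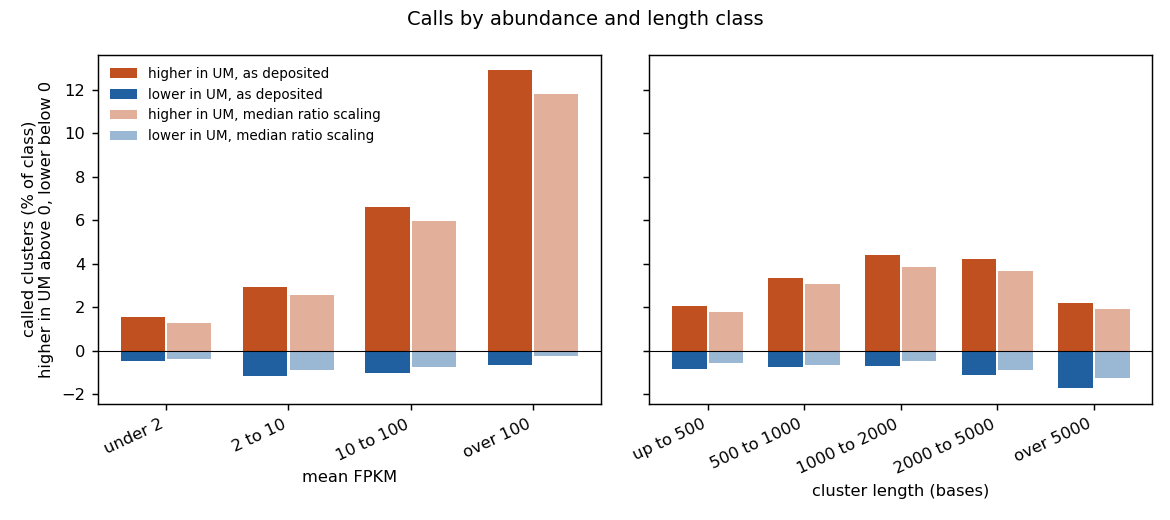
Bars give called clusters as a percentage of the tested clusters in each class of mean FPKM (left) and of cluster length (right), rises above 0 and falls below 0, as deposited (dark) and after median ratio scaling (pale). Rises take 1.55% of the lowest and 12.9% of the highest class of mean FPKM, a mean that contains the raised UM values, and the longest clusters have the highest share of falls, 1.73%.

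With length, the downward shift grew, the share of falls was highest in the longest clusters and the share of rises in those between 1000 and 5000 bases. The median log2 fold change was -0.04 up to 500 bases, -0.05 from there to 1000, -0.06 to 2000, -0.10 to 5000 and -0.18 over 5000 bases. The share of clusters lower in UM was 53.3% in the shortest class and 76.6% in the longest. Rises took 2.07% of the shortest class (108 of 5217), 3.35% (197), 4.39% (327) and 4.20% (371) of the next ones and 2.18% (53 of 2434) of the longest. Falls took 0.843, 0.782, 0.725, 1.11 and 1.73% of these classes, which is 44, 46, 54, 98 and 42 clusters. Over 5000 bases falls therefore made up 44.2% of the calls, against 14.2% between 1000 and 2000 bases. Without overlap between the groups, 144 clusters of the longest class were higher (5.92%) and 346 lower (14.2%) in UM. Of the shortest, 241 were higher (4.62%) and 154 lower (2.95%), against 8.21 and 5.9% of all tested clusters.

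The shift with length was also seen within classes of abundance. Within each of the 4 abundance classes the longest clusters had the lowest median log2 fold change: -0.13 under 2 FPKM, -0.18 from 2 to 10, -0.21 from 10 to 100 and -0.30 over 100 FPKM. The shortest clusters of the same classes had -0.02, -0.05, -0.05 and -0.05. The share of falls did not follow it in every class. It was higher in the longest than in the shortest clusters from 2 to 10 FPKM (2.14% against 0.872%), close to it under 2 FPKM (0.482% against 0.480%) and from 10 to 100 FPKM (1.72% against 1.70%), and over 100 FPKM it was 0% of 37 clusters against 0.870% of 115. Without UM replicate 3 and UL replicate 4 the median log2 fold change was -0.07 in the longest and 0.02 in the shortest clusters, with 63.7% and 48.3% lower in UM.

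The length trend was then described library by library, from the same values as the class medians. Each library's median deviation from the mean of the 8 libraries was taken in clusters over 5000 bases, and that in clusters of up to 500 bases was subtracted. The result was -0.06, -0.112, -0.09 and -0.13 in UM replicates 1 to 4 and -0.053, 0.03, 0.074 and 0.089 in UL replicates 1 to 4, on the log2 scale. All UM values lay below all UL values, but UM replicate 1 and UL replicate 1 were nearly equal. The means were -0.10 ± 0.03 in UM and 0.03 ± 0.06 in UL (SD, n = 4 each), a difference of -0.13 (exact permutation p = 0.0286, the smallest possible with 4 against 4; 0.0858 adjusted over the 3 library measures tested). After median ratio scaling the difference was again -0.13, but UL replicate 1 then overlapped the UM values (exact permutation p = 0.0571, 0.171 adjusted over the 3 measures). This test was chosen after the trend over classes had been seen.

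Median ratio scaling, which divides each library by its median ratio to a common profile, left rises in the majority of the large changes and reduced the downward shift. Its factors were 1.10, 1.10, 1.02 and 1.08 in UM and 1.23, 1.11, 0.932 and 1.24 in UL, so UL replicate 3 was scaled the other way from the rest of its group. Over all tested clusters the median log2 fold change was then -0.04, with 55.0% below 0. Of 1143 calls (3.83%) 928 rose (3.11%) and 215 fell (0.721%), and 900 rises and 189 falls were called on both scales. Between 0.5 and 1 on the log2 scale the majority turned, with 117 rises and 100 falls, against 115 and 145 as deposited. The median log2 fold change was 2.12 among the rises and -0.63 among the falls. By abundance, rises took 1.26, 2.56, 5.97 and 11.8% of the 4 classes and falls 0.371, 0.914, 0.763 and 0.269%. By length, falls took 0.556% of the shortest and 1.27% of the longest class, and the median log2 fold change in the longest class was -0.13, against 0.00 in the shortest. The largest called fall was -6.79 as deposited and -3.35 after scaling, where the falls beyond that size no longer passed although their fold changes were similar (highest adjusted p of these 0.0559).

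Together the called clusters carried a sizeable part of the RNA in UM. The 1056 that rose held 13.4, 10.3, 19.6 and 8.66% of the FPKM sum in UM replicates 1 to 4 and 1.99, 1.99, 1.10 and 1.28% in UL replicates 1 to 4. The 284 that fell held 0.239, 0.268, 0.197 and 0.231% in UM and 0.577, 0.584, 0.484 and 1.28% in UL. These sums describe clusters chosen by the same values. UM replicate 3 was the highest UM library in 877 of the 1056 rises (83.0%), where it was the highest in 29.2% of all tested clusters. The rises thus largely shared their highest UM library. Their median SD on the log2 scale was 0.54 in UM and 0.34 in UL. Among the falls no UM library was the highest in more than 34.2%. UM replicate 3 was the lowest UM library in 38.4% of the falls, against 35.5% of all tested clusters. UL replicate 4 was the highest UL library in 46.5% of them, against 39.6% of all tested clusters. The median SD of the falls was 0.19 in UM and 0.22 in UL.

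**Figure D4:**
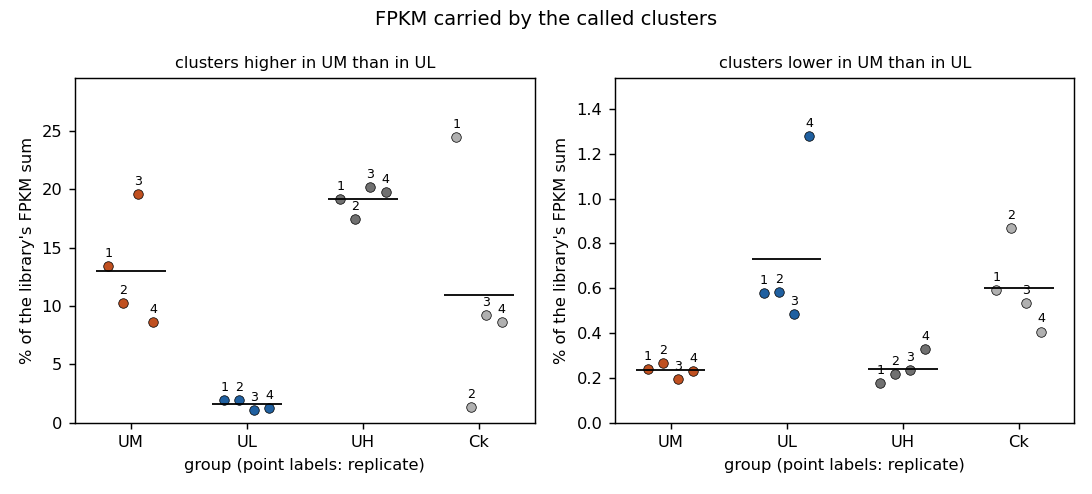
Points give the percentage of each library's FPKM sum held by the 1056 clusters that rose (left) and the 284 that fell (right) between UM and UL, numbered by replicate, with group means as lines. The rises hold 8.66 to 19.6% in UM against 1.10 to 1.99% in UL, all UH libraries lie at 17.5 to 20.2%, and Ck libraries spread from 1.36 to 24.5%.

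UH and Ck libraries had no part in the difference between UM and UL, and most of the called clusters lay on the same side between them. The 1056 rises held 19.2, 17.5, 20.2 and 19.8% of the FPKM sum in UH replicates 1 to 4 and 24.5, 1.36, 9.27 and 8.60% in Ck replicates 1 to 4. Ck replicate 2 thus lay within the UL range and Ck replicate 1 above every UM and UH library. Between UH and Ck, limma called 3427 of the 29815 clusters, 963 that rose (3.23%) and 2464 that fell (8.26%). Of the 1056 clusters that rose in UM, 215 rose in UH against Ck (20.4%) and 3 fell (0.284%), with a median log2 fold change of 1.06 against -0.15 over all tested clusters. Of the 284 that fell in UM, 148 fell in UH against Ck (52.1%) and 1 rose (0.352%), with a median of -0.54. After median ratio scaling, 246 of 928 rises (26.5%, background 5.64%) and 87 of 215 falls (40.5%, background 4.16%) were called in the same direction. The groups share 1 estimate of the spread in the fit, which bears on calls but not on signs. As deposited, 93.8% of the rises were higher in UH than in Ck (33.2% of all tested clusters), and 91.9% of the falls were lower (66.7% of all tested clusters).

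Between UM and Ck few clusters passed the same test: 25 of the 29815 (0.0839%), 20 that rose and 5 that fell. A low count of calls does not measure the size of a difference. The Ck libraries were uneven, with 1.36 to 24.5% of their FPKM sum in the 1056 rises. Between UM and UL the count itself fell to 31 without UM replicate 1. The comparison of UM with Ck shares the UM libraries with that of UM and UL. Whether UM differed more from UL than from Ck was not tested.

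A pair of clusters that rose and a pair that fell show what these changes look like in single libraries. Cluster-9253.47406, a cluster of 5611 bases, had the largest log2 fold change among the called clusters. It had 1071, 224, 107 and 727 FPKM in UM replicates 1 to 4 and 0.35, 2.31, 1.17 and 0.37 FPKM in UL replicates 1 to 4, which in UL is an estimated 35 to 239 fragments. The groups were far apart, and UM replicate 3, the highest library for most rises, was here the lowest of UM. The log2 fold change was 7.60 ± 0.99 (SE, limma adjusted p = 0.00703), and the call held without any 1 of the 8 libraries (highest adjusted p 0.033). UH libraries had 1459 to 7915 FPKM and Ck libraries 11.98 to 458 FPKM.

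Cluster-9253.48377 (780 bases) was the most abundant cluster with a rise that met the rule for named clusters, and ranked at position 29 of those tested. Its values were 6939, 4276, 6588 and 3543 FPKM in UM and 610, 701, 421 and 511 FPKM in UL. The lowest UM library was several times above the highest UL library, with a ratio of means of 9.52 and a log2 fold change of 3.22 ± 0.68 (limma adjusted p = 0.0242). The call was lost without UM replicates 1 or 3 or UL replicates 2, 3 or 4 (highest adjusted p 0.0912) and without a filter on low values (adjusted p = 0.0739), and also without UM replicate 3 and UL replicate 4 together (0.188), with a log2 fold change of 3.06 to 3.33 over those fits. UH libraries had 8039 to 11332 FPKM and Ck libraries 321, 2218, 2081 and 8803 FPKM, so 1 Ck library lay below every UL library and 1 above every UM library.

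Cluster-9253.48561 (700 bases) had the largest fall under the rule. It had 0.36 and 0.84 FPKM in UM replicates 1 and 2, was listed at 0 in UM replicates 3 and 4, and had 5.40, 6.14, 3.56 and 1.87 FPKM in UL. These are an estimated 3, 7, 0 and 0 fragments in UM and 43, 52, 31 and 14 in UL, so the size of the fall rests on few fragments. With every UM value under 1 FPKM, the cluster passed the filter only through its 4 UL values. The filter thus fixed its direction and the lack of overlap, and the call is no further support for either. The log2 fold change was -1.98 ± 0.30 (limma adjusted p = 0.0151), and the call held without any 1 library (highest adjusted p 0.0468). Its size depended on the pseudocount: it was -3.95 with a pseudocount of 0.1 and -4.26 with limma voom on estimated fragments.

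Cluster-9253.46383 (682 bases) was the most abundant such fall, with 270, 475, 186 and 229 FPKM in UM and 826, 900, 625 and 486 FPKM in UL. The groups did not overlap, but UM replicate 2 came close to UL replicate 4. The log2 fold change was -1.34 ± 0.30 (limma adjusted p = 0.0266), and the call was lost with any 1 of 7 libraries left out, all but UM replicate 2 (highest adjusted p 0.0996), with no filter on low values (0.0856), in a fit of the 8 libraries alone (0.0545) and without UM replicate 3 and UL replicate 4 (0.16). The log2 fold change stayed between -1.51 and -1.16 in these fits. UH libraries had 158 to 226 FPKM and Ck libraries 221 to 430 FPKM, below all UL libraries.

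**Figure D5:**
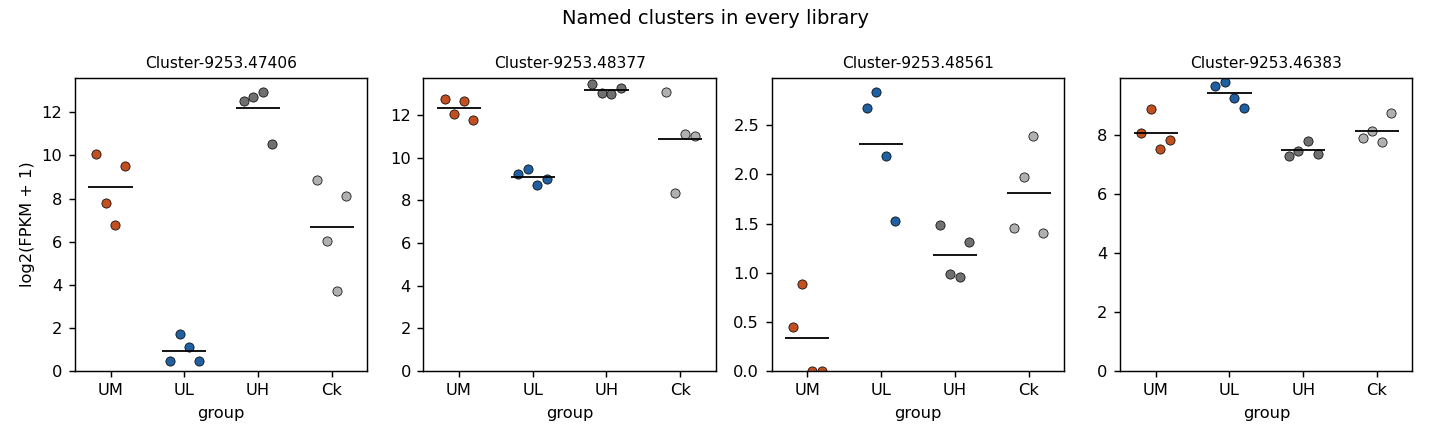
Points give log2(FPKM + 1) of the 4 named clusters in every library, with group means as lines. In the left pair all UM values lie above all UL values, in the right pair all lie below, and UH lies beyond UM for the left pair.

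The largest called falls came mainly from short clusters. The largest called rises also had a shorter median length than all tested clusters (675 against 1461 bases). Among the 20 largest called rises, log2 fold changes ran from 4.24 to 7.60 and lengths from 353 to 8023 bases (7 up to 500). Their mean FPKM ran from 19.0 to 1510, and 19 of the 20 were also called after median ratio scaling. UM replicate 3 was the highest UM library in 11 of them, UM replicate 4 in 5 and UM replicate 1 in 3. The 20 largest called falls ran from -1.78 to -6.79, and 14 were also called after scaling. In length, 16 were of up to 500 bases, a class that held 17.5% of the tested clusters. Of these 20 falls, 7 were listed at 0 in all 4 UM libraries, where a fold change is set by the pseudocount.

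Most calls were of clusters present in both groups, and some were of clusters near absence in one. Of the 1056 rises, 16 were listed at 0 in all UL libraries (1.52%, against 0.0771% of all tested clusters) and 174 stayed under 1 FPKM in all of them (16.5%, against 1.12%), while 650 had at least 1 FPKM in all 8 libraries (61.6%, against 69.4%). Of the 284 falls, 7 were listed at 0 in all UM libraries (2.46%, against 0.0335%), 28 stayed under 1 FPKM in all of them (9.86%, against 0.305%), and 203 had at least 1 FPKM in all 8 (71.5%). The calls were chosen by these values, so the shares are descriptions. A cluster under 1 FPKM in all 4 libraries of a group passed the filter only through the other group, which fixed its direction. The median length was 1636 bases among the rises, 1972 among the falls and 1461 among all tested clusters, and the median mean level 8.85, 4.76 and 3.76 FPKM.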

How the data were processed

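Poly-A RNA of whole spiders was fragmented and reverse transcribed with random hexamers for Illumina sequencing, per the labels' protocols. The deposited table lists FPKM calculated by the authors, rounded to 2 decimals, with a length per cluster, taken to be in bases. How clusters were assembled and fragments counted is not given in the sources used here. In the submitters' processing notes the build is mm10, a mouse genome that does not match the organism. Groups came from the labels.

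The filter was 1 FPKM in 4 or more of the 8 UM and UL libraries, and values entered as log2(FPKM + 1). A limma fit (version 3.58.1, R 4.3.3) took in all 16 libraries with a trend of variance on mean (12 residual degrees of freedom). Its contrast was UM minus UL, two-sided, and the fit was tested on simulated data. Depth was estimated from the spacing of low FPKM values. Of values worth up to 10 fragments on clusters no longer than 900 bases, 98.2 to 98.9% were whole within 0.1 fragments. Single values per library were compared by exact permutation tests (scipy 1.17.1).

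Named clusters were called without overlap of the groups, at least 500 bases long, called alike after median ratio scaling and not named earlier. For each direction the largest change and the most abundant of the rest were taken. Class bounds belong to the lower class. The comparison, classes and rule were chosen with earlier results of these data known.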

Additional observations from a re-analysis of the deposited data

Results flagged for a closer look

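The share of the FPKM sum held by the 284 clusters that fell was 1.28% in UL replicate 4, far above the other UL libraries (0.484 to 0.584%); the gap was 0.874 of the group's range, above Dixon's critical value for 4 values. This was 1 of 20 groups of 4 values examined, and chance flags about 1 in 20. The clusters were chosen with this library in the comparison. Without UL replicate 4 the median log2 fold change of the 284 falls was -0.66, against -0.69 with it.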

How the results depend on the processing

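With 1 library left out, the 1340 calls came to 31 to 1088, the share that fell (21.2%) to 14.7 to 39.0%, and the median log2 fold change over the tested clusters (-0.08) to -0.14 to -0.04. In other settings 2240 clusters were called with quantile normalization (1298 rose, 942 fell), 2069 with array weights, 745 with limma voom on estimated fragments and 70 without a filter on low values, where 131658 clusters were tested. The cause of the other changes was not tested. The share that fell was 18.8% after median ratio scaling, 42.1% with quantile normalization, 18.7% with a pseudocount of 0.1, 18.5% with the filter over all 16 libraries, 9.80% with the 8 libraries alone (1602 calls) and 26.6% with array weights. The median was -0.04 after median ratio scaling. Alternatives added after the data were seen gave 16 calls, 37.5% falls and a median of -0.01 without UM replicate 3 and UL replicate 4, and 11.6% falls and a median of 0.02, turned in sign, with quantile normalization over all listed clusters. Without a filter 7572 of 131658 tested clusters had no overlap of the groups. With a filter at 5 FPKM it was 2363 of 11953, against 4207 of 29815. The difference (UM minus UL) in clusters listed above 0, -1035.8, ran from -2591.1 without UL replicate 1 to 1730.2, turned in sign, without UL replicate 3 (exact permutation p = 0.343). That in the share of the 10 most abundant clusters ran from 0.233 to 4.43 percentage points. The difference between long and short clusters stayed between -0.16 and -0.12 with 1 library left out, where the test cannot go below 0.0571. With the replicate number as a block 1250 clusters were called and 18.7% of them fell. Same-numbered UM and UL libraries had correlations of deviations of -0.20 to 0.00, and 0 of 4 UM libraries correlated best with its own number. No pairing by number was seen, but 4 pairs are too few to show a weak one. Depth limits clusters of few fragments, most of all short ones.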

Other observations

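Relative to UM and UL, the other groups lay as follows. Of the 1056 clusters that rose in UM, the UH mean lay beyond the UM mean in 819 (77.6%, against 63.1% of all tested clusters) and nearer to UM than to UL in 1005 (95.2%, against 72.9%). The Ck mean lay between the UM and UL means in 1024 (97.0%, against 39.0%) and nearer to UM in 783 (74.1%, against 58.2%). Of the 284 that fell, the UH mean lay beyond the UM mean in 198 (69.7%, against 63.1%), and after median ratio scaling in 133 (46.8%, against 53.8%). The Ck mean was nearer to UM in 152 of the falls and nearer to UL in 132, and after median ratio scaling in 106 and 178. The clusters were chosen by their UM and UL values, so these positions are descriptions only.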
